A study of Mus musculus with 6 samples.

Results

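Transcripts of 9 peptide hormone genes were read in fetal mouse pancreas, out of 54735 gene symbols counted. The 9 were chosen by name from hormones of the less frequent islet cells, of the gut and of nerves: Ppy, Pyy, Npy, Ghrl, Gast, Cck, Tac1, Vip and Gal. The tissue was whole pancreas from embryos at e16.5 on a mixed C57Bl6/129SV background, sequenced in 6 libraries. All 6 carried Neurog3:cre, a recombinase under the control of the gene that marks endocrine progenitors. The 3 control libraries carried that driver alone. The 3 RARdn libraries also carried RARdnfl/fl, a floxed allele whose name commonly stands for a dominant-negative retinoic acid receptor. The labels give neither the allele's sequence nor its promoter, and do not say which embryos shared a litter. The driver is active in a small part of the organ, while RNA came from all of it, so fewer hormone cells and less hormone RNA per cell cannot be told apart in any value below.

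Peptide hormones are cut from longer precursors in secretory granules, and many are then amidated at their last residue. Pancreatic polypeptide (Ppy), peptide YY (Pyy) and neuropeptide Y (Npy) form a family with a shared hairpin fold. Ppy marks islet PP cells, and Ghrl, the ghrelin gene, marks epsilon cells, which are more frequent in the fetal than in the adult islet. Gastrin (Gast) and cholecystokinin (Cck) are gut hormones that share an active end and act on the CCK receptors, and gastrin is also made in the fetal islet. Tac1, the precursor gene of substance P and neurokinin A, and the genes of vasoactive intestinal peptide (Vip) and galanin (Gal) are best known from nerves.

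Ppy and Pyy are neighbours on chromosome 11 (GRCm38): Ppy at chr11:102099930-102101319 and Pyy at chr11:102106676-102107832, both on the minus strand, 5356 bases apart with 0 annotated genes between them. The coding stretches below end the hormone (capitals) and run into the codons for amidation and cleavage (lower case). They are shown because relatives this close could share reads. The Tac1 stretch covers the substance P codons, and is shown because Tac1 had the largest fitted difference of the 9.

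Ppy: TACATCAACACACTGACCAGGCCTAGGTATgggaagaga
Pyy: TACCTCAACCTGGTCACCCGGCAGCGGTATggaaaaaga
Npy: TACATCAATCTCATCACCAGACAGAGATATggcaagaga
Tac1: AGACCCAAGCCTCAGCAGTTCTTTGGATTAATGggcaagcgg

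These are GENCODE M21 coding sequences on GRCm38, read 5′ to 3′, and the Tac1 stretch is bases 172 to 213 of its coding sequence. Over the 39 bases shown for the hormone family, Ppy and Pyy differed at 12, Ppy and Npy at 11, and Pyy and Npy at 10. The longest run of bases shared between GENCODE M21 transcripts of any pair among the 9 genes was 14, between Npy and Tac1. Of the 9 genes, Ghrl was the 1 that overlapped other annotated genes, namely Gm26982 and Gm44033 on the opposite strand. The strand setting of the counting is not given in the sources used here, so Ghrl counts may hold reads of those genes.

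The 250 bases before the RefSeq start sites of Pyy and Ppy (GRCm38.p6) are printed next, since Pyy passed the test below and its neighbour did not. The shares of both in their summed level are given further on. Capitals mark matches, on either strand, to any of these 5 motifs: TATAAA (bound by the TATA-binding protein in core promoters), AGGTCA (the hexamer of nuclear receptors), a direct repeat of that hexamer with 5 bases between (as in retinoic acid elements, so that each repeat also counts as a hexamer), CAGATG (an E-box of bHLH factors) and TGACGTCA (cyclic AMP element).

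Pyy, chr11:102107833-102108082, minus strand: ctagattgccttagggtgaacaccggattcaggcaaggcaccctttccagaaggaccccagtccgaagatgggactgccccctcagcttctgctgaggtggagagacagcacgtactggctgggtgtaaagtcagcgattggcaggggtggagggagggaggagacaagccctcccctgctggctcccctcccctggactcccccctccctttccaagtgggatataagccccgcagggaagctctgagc
Ppy, chr11:102101320-102101569, minus strand: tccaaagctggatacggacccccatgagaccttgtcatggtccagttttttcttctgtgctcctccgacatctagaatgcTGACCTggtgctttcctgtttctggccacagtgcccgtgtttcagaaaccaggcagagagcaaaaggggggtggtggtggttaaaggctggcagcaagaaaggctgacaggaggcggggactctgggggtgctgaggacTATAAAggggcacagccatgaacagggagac

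The Ppy stretch held TATAAA beginning 31 bases before the start and the hexamer on the other strand, beginning 170 bases before it. The Pyy stretch held none of the 5 as exact strings, though it held tataag, which is TATAAA but for its last base. RefSeq gave 2 starts for Pyy, and that nearest the GENCODE start was used. Among 32851 RefSeq stretches of the same length, 12.4% held TATAAA, 14.02% the hexamer, 0.00913% the repeat, 14.4% the E-box and 1.55% the cyclic AMP element. A match is a string of letters and was not tested as a binding site.

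Counts in genes ranged from 35256531 to 52015498 per library. The tissue label held in every library: Pdx1, the transcription factor gene of pancreatic epithelium, was at 33.1 to 55.9 CPM (counts per 1000000 counts of the library, after TMM scaling), and Cpa1, an acinar enzyme gene, at 4660 to 20440 CPM. The RARdn libraries differed among themselves. Acinar genes took 7.48%, 23.1% and 28.0% of the counts in RARdn 1, 2 and 3 against 18.2% to 19.7% in controls, and the label of RARdn 1 opens with another number than that shared by RARdn 2 and 3. Xist was above 10 CPM in 2 of the 3 controls and in 0 RARdn libraries, so control 2 was the only male control by that measure and the sexes were not balanced. Of 8 liver genes 2 rose, as did 1.37% of all genes tested. The 8 summed to 382 to 411 CPM in controls and to 1532, 603 and 449 CPM in RARdn 1, 2 and 3. Most of the control sum was Ttr, at 388, 360 and 383 CPM. In RARdn 1, 2 and 3 Ttr was at 284, 318 and 421 CPM. Alb was at 1.36, 2.92 and 1.18 CPM in controls and at 597, 137 and 3.19 CPM in RARdn 1, 2 and 3.

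All 9 genes passed the filter on low counts, but 2 were hard to read. Tac1 passed through the RARdn libraries, since its control counts were 3, 1 and 6 reads. Vip had 14 to 47 reads per library. In controls, the order of level by CPM per kilobase of exon ran from Pyy at 221 ± 30.2 (SD, n = 3) through Ppy at 31.98 ± 3.34, Npy at 25.5 ± 3.69, Gal at 22.2 ± 2.32, Ghrl at 9.54 ± 0.848, Gast at 5.05 ± 0.631 and Cck at 1.51 ± 0.513 to Vip at 0.145 ± 0.0623 and Tac1 at 0.0235 ± 0.0172. Ppy and Npy overlapped over the control libraries, as did Npy and Gal, and the other neighbours in that order did not.

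RARdn was compared with control to ask which of these hormones differed between embryos with RARdnfl/fl and the driver and embryos with the driver alone. Of the 9 genes, 1 fell (Pyy) and 1 rose (Tac1) by edgeR's quasi-likelihood test at an adjusted p under 0.05 over all 19070 genes tested, and 7 were not called. Tac1 was tested only because its RARdn libraries passed the filter on low counts. Over all genes 4.02% were called (262 or 1.37% higher, 505 or 2.65% lower). The same 2 genes were those whose groups did not overlap in CPM, as was the case for 27.6% of all genes tested (13.9% higher, 13.7% lower). The log2 fold changes of 7 of the 9, Tac1 among them, were above 0, as were those of 9543 of the 19070 genes tested. Their median was 0.51 over the 9, against 0.00051 over all genes tested. Scaled to the summed counts of 16 pan-endocrine genes, 144 genes were called higher and 677 lower, and the median over all genes moved to -0.18.

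**Figure D1:**
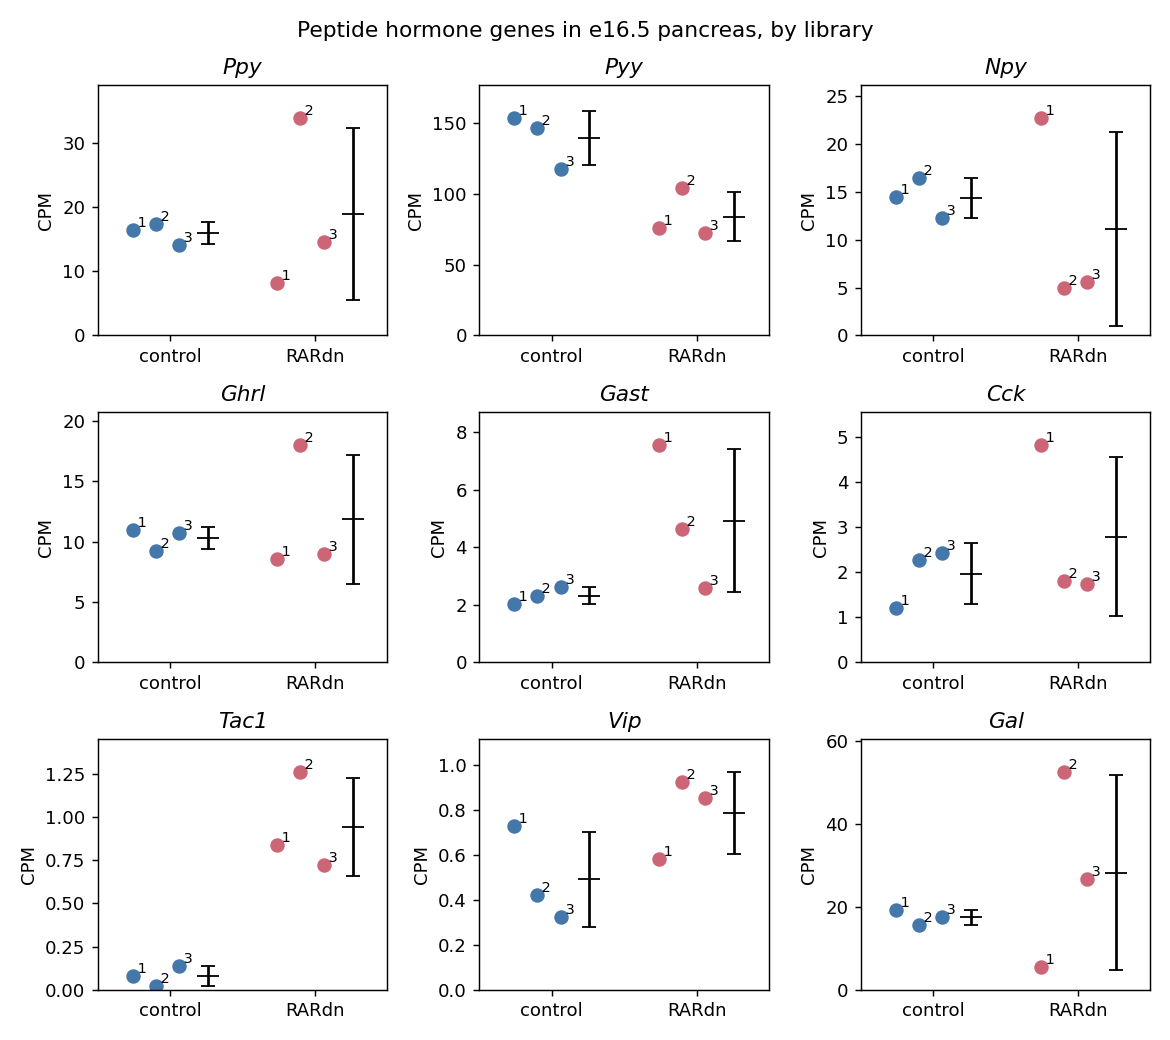
CPM of the 9 peptide hormone genes in each library, with linear axes from 0. Points carry the replicate number, and the black mark and bar give the mean ± SD of the 3 libraries of a group. Pyy is lower and Tac1 higher in every RARdn library, while Ppy, Npy, Ghrl, Gast, Cck and Gal spread widely among the RARdn libraries.

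Pyy, the most abundant of the 9, fell. Control 1, 2 and 3 held 154, 146.5 and 117.8 CPM, and RARdn 1, 2 and 3 held 75.7, 103.9 and 72.4 CPM. Every RARdn library lay below every control. The group means were 139.5 ± 19.1 and 83.99 ± 17.3 CPM (SD, n = 3 each), a log2 fold change of -0.73 (SE 0.17, approximate 95% interval -1.11 to -0.35, edgeR adjusted p = 0.0482). Of the 6 fits that left out 1 library, only that without RARdn 3 kept the call (adjusted p = 0.0439, with 7.84% of all genes called lower), and without control 1, 2 or 3 or RARdn 1 or 2 it was 0.123, 0.180, 0.0680, 0.0742 and 0.0521. With a term for sex Pyy was not called (log2 -0.80). No RARdn library was female by Xist, so that fit set the RARdn libraries against control 2 alone. Of 17 alternatives DESeq2 gave Pyy the lowest adjusted p, 0.00126. With pan-endocrine scaling its adjusted p was 0.0561 (log2 -0.90), with scaling by total counts 0.0973, and with a filter of at least 1 CPM in 3 libraries 0.0694.

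Pyy was also lower relative to the pan-endocrine genes and to glucagon transcripts of the same library. Per summed CPM of the pan-endocrine genes, of which 1 of 16 rose, controls 1 to 3 held 17.2%, 15.1% and 13.7%, and RARdn 1 to 3 held 5.86%, 10.6% and 8.21%. Per Gcg, the glucagon gene of alpha cells, it was at 18.95%, 20.9% and 12.2% in controls and at 8.52%, 10.01% and 10.7% in RARdn libraries. The groups did not overlap in either ratio. In both the 2-sided exact permutation p was 0.1, the smallest that 3 against 3 allows. After Benjamini-Hochberg adjustment over the 9 genes these were 0.45 and 0.3. Not every endocrine transcript held its level, however. The mean CPM of Ins2, an insulin gene, was 0.555 times that of controls, beside 0.602 times for Pyy. No ratio of Pyy to insulin transcripts was tested.

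Ppy, its neighbour, was not called. It was at 16.52, 17.3 and 14.1 CPM in control 1, 2 and 3, against 8.22, 34.0 and 14.6 CPM in RARdn 1, 2 and 3. RARdn 2 was above all controls, RARdn 1 below them all and RARdn 3 among them. The log2 fold change was 0.25 (interval -0.71 to 1.21, edgeR adjusted p = 0.777), which leaves room for a fall to 0.609 times or a rise to 2.31 times the control level. Without RARdn 2 its sign turned (log2 -0.49, adjusted p = 0.349). Pyy made up 89.3% to 90.3% of the summed CPM of Pyy and Ppy in the controls. The shares in RARdn 1, 2 and 3 were 90.2%, 75.3% and 83.2% (2-sided exact permutation p = 0.3).

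Npy (chr6:49822710-49829507) split the RARdn libraries. It was at 14.5, 16.4 and 12.3 CPM in control 1, 2 and 3, at 22.8 CPM in RARdn 1, and at 4.95 and 5.60 CPM in RARdn 2 and 3. RARdn 1 was the highest of all 6 libraries and the other RARdn libraries were the lowest. Over all libraries it was not called (log2 -0.36, interval -1.54 to 0.81, edgeR adjusted p = 0.724). Without RARdn 1 it was called lower (log2 -1.42, adjusted p = 0.00838), in a fit where 2.34% of all genes were. Without RARdn 2 or 3 the log2 fold change was -0.0016 and -0.047.

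Neuron genes were high in the same library. The list of 20 neuron genes summed to 235 to 256 CPM in controls and to 419, 178.3 and 178.4 CPM in RARdn 1, 2 and 3. Of its 18 tested genes edgeR called 0 higher and 1 lower (Ret, at 41.8 to 149 CPM), with 8 at an unadjusted p under 0.05, and DESeq2 called 3 higher and 1 lower. Ret made up much of the sum, and leaving it out was chosen after its values were seen. Of the other 19 genes 16 were highest in RARdn 1, and their summed level was 85.8 to 127 CPM in controls as opposed to 350, 136.5 and 106 CPM in RARdn 1, 2 and 3. Dbh, the enzyme gene that makes noradrenaline, had 679 reads in RARdn 1 and 1 to 5 reads in every other library, and Th, the enzyme gene upstream of it, was at 10.2 CPM in RARdn 1 and at 1.03 to 2.27 CPM elsewhere. None of the 20 was at 0 in all libraries. Sympathetic neurons are a textbook source of Npy. The part of these genes' cells in the Npy values was not tested.

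Ghrl (chr6:113716119-113719880) was at 10.9, 9.24 and 10.7 CPM in control 1, 2 and 3, against 8.55, 18.0 and 8.99 CPM in RARdn 1, 2 and 3. RARdn 2 was above all controls, and RARdn 1 and 3 were just below them. It was not called (log2 0.21, interval -0.42 to 0.83, edgeR adjusted p = 0.705), and without RARdn 2 its log2 fold change was -0.23 (adjusted p = 0.497). As folds, the interval ran from 0.747 to 1.78 times the control level. Mboat4, the acyltransferase gene that activates ghrelin, was at 1.16 ± 0.313 and 1.32 ± 0.211 CPM (adjusted p = 0.772).

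Gal (chr19:3409915-3414544) had the widest range of the 9 between RARdn libraries. It was at 19.2, 15.5 and 17.6 CPM in control 1, 2 and 3, against 5.54, 52.6 and 26.7 CPM in RARdn 1, 2 and 3, a 9.49-fold range within the RARdn group against 1.23-fold within controls. RARdn 1 was below every control, and RARdn 2 and 3 were above. It was not called (log2 0.70, interval -0.67 to 2.06, edgeR adjusted p = 0.537). Without RARdn 1 it was called higher (log2 1.21, adjusted p = 0.0363, with 1.66% of all genes called higher there), and without RARdn 2 the log2 fold change was -0.12 (adjusted p = 0.932).

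RARdn 1 was the lowest library, and RARdn 2 the highest, in Ppy, Ghrl and Gal, though in Ghrl RARdn 1 and 3 were close. Relative to the control mean, on the log2 scale, Gal lay at -1.66, 1.59 and 0.61 in RARdn 1, 2 and 3, and Ppy at -0.96, 1.09 and -0.13. Ghrl lay at -0.27, 0.81 and -0.20. The summed acinar list, all of whose 31 genes were tested and none called by edgeR or DESeq2 (1 at an unadjusted p under 0.05), lay at -1.65, 0.30 and 0.75. The pan-endocrine sum lay at 0.50, 0.11 and -0.045. Pearson correlations of log2 CPM over the 6 libraries were 0.922 for Ppy with Gal, 0.876 for Ppy with Ghrl, 0.771 for Ghrl with Gal and -0.899 for Npy with Gal. These describe 6 libraries that share depth and composition, and the part of tissue composition in them was not tested. Within controls the coefficient of variation was 10.4% for Ppy, 8.89% for Ghrl and 10.5% for Gal, and within RARdn libraries it was 70.8%, 45.2% and 83.3%. Over the 13559 tested genes that averaged 2 CPM or more the medians were 7.64% and 13.7%. Of those genes 75.6% varied more within RARdn libraries than within controls.

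**Figure D2:**
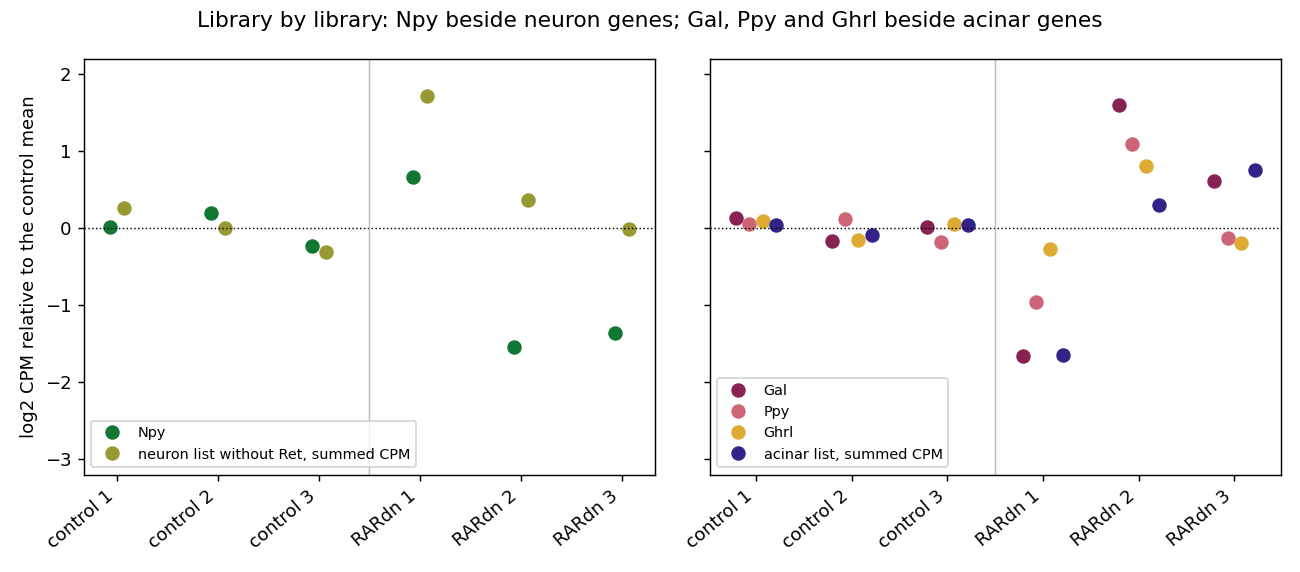
Log2 CPM of each library relative to the control mean (dotted line at 0). On the left Npy stands beside the summed neuron list without Ret, which was left out after its values were seen, and both are highest in RARdn 1. On the right Gal, Ppy and Ghrl stand beside the summed acinar list, all lowest in RARdn 1. The acinar sum is highest in RARdn 3, while Gal, Ppy and Ghrl are highest in RARdn 2.

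Gast (chr11:100334407-100336996) was at 2.04, 2.32 and 2.62 CPM in control 1, 2 and 3, against 7.56, 4.62 and 2.60 CPM in RARdn 1, 2 and 3. RARdn 1 and 2 were above every control, and RARdn 3 was just below the highest. The log2 fold change was 1.09 (interval 0.28 to 1.90) at an unadjusted p = 0.0139 and an edgeR adjusted p = 0.121, so it was not called. Over all genes 22.2% had an unadjusted p under 0.05. DESeq2 called Gast higher (adjusted p = 0.0289, with 10.2% of genes called and 5.11% called higher). So did edgeR without RARdn 3 (0.0180, with 6.98% called higher) and with every gene kept (0.0240, with 3.31%).

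Cck (chr9:121489824-121495694) was at 1.20, 2.27 and 2.43 CPM in control 1, 2 and 3, against 4.82, 1.80 and 1.74 CPM in RARdn 1, 2 and 3. RARdn 1 was above every control, and RARdn 2 and 3 lay among them. It was not called (log2 0.51, interval -0.51 to 1.53, edgeR adjusted p = 0.545), and without RARdn 1 its log2 fold change was -0.13 (adjusted p = 0.866). Genes of gut and stomach epithelium, which also hold gastrin and cholecystokinin cells, differed from gene to gene. The intestinal factor genes Cdx1 and Cdx2 had at most 3 reads in any library and Gkn2 had 0 in all. Fabp1, a fatty acid binding protein gene of gut and liver, had at most 2 reads in any control, while RARdn 1, 2 and 3 had 268, 35 and 0. Fabp2, its intestinal relative, had 1 to 4 reads in controls and 17, 4 and 0 in RARdn 1, 2 and 3. RARdn 1 was thus highest in Fabp1 and Fabp2, as in Gast and Cck, but not across the list. The summed liver genes ran in the same order as Fabp1, at 1532, 603 and 449 CPM in RARdn 1, 2 and 3, though Ttr among them ran the other way. Whether the Fabp1 reads came from gut or from liver was not tested. Vil1 was at 27.3 CPM in RARdn 1, below control 1, 2 and 3 at 48.6, 57.9 and 60.2 CPM. Tff2 was at 26.8, 72.8 and 50.6 CPM in RARdn 1, 2 and 3. The summed level of the 16 genes was 88.2 to 102 CPM in controls and 64.8 to 107 CPM in RARdn libraries, most of it from Vil1 and Tff2, and none of the 6 tested was called by edgeR or DESeq2 (2 had an unadjusted p under 0.05). The part of gut tissue in the Gast and Cck values was not tested.

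Tac1 (chr6:7554879-7565834) rose from a trace. Control 1, 2 and 3 had 3, 1 and 6 reads of it, and RARdn 1, 2 and 3 had 49, 64 and 22, which is 0.0783, 0.0223 and 0.139 CPM against 0.838, 1.26 and 0.724 CPM. Every RARdn library was above every control. Tac1 passed the filter on low counts through the RARdn libraries alone. The fitted log2 fold change was 3.53 (SE 0.57, interval 2.25 to 4.82, edgeR adjusted p = 0.0165). The ratio of summed reads, 135 against 10, was 12.2 after scaling (exact binomial 95% interval 6.45 to 26.1, for counting error alone). The call was lost without control 1, without control 2 and without RARdn 2 (adjusted p = 0.0565, 0.0597 and 0.0669). It was also lost with a term for sex (log2 5.24), a fit that set the RARdn libraries against control 2 alone. Over its 16 alternatives the adjusted p ranged from 2.54e-05 to 0.0882. A filter of at least 1 CPM in 3 libraries removed it from testing.

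RARdn 2 was highest in Tac1 and RARdn 1 in the neuron genes, whose sum without Ret was at 136.5 CPM in RARdn 2 and at 350 CPM in RARdn 1. Per summed pan-endocrine CPM, Tac1 was at 0.00874%, 0.00229% and 0.0161% in controls and at 0.0649%, 0.128% and 0.0821% in RARdn libraries. The exact permutation p was 0.1, the smallest that 3 against 3 allows. After Benjamini-Hochberg adjustment over the hormone genes it was 0.45. This ratio used the same reads as the fit, and Tac1 passed the filter on low counts through the RARdn libraries alone. The ratio is therefore not a second test of the rise. Which cells held the transcripts was not tested.

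Vip (chr10:5639218-5647617) was at 0.731, 0.423 and 0.324 CPM in control 1, 2 and 3, against 0.581, 0.927 and 0.856 CPM in RARdn 1, 2 and 3. The groups overlapped, since control 1 was above RARdn 1. It was not called (log2 0.68, interval -0.26 to 1.62, edgeR adjusted p = 0.373). As folds, the interval ran from 0.832 to 3.07 times the control level.

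**Figure D3:**
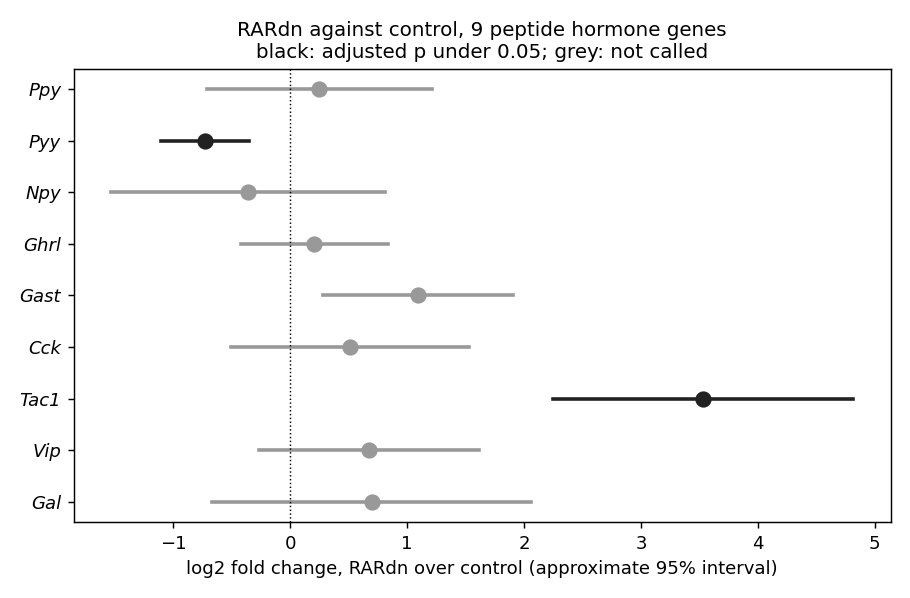
Log2 fold change of RARdn over control for the 9 genes with approximate 95% intervals from edgeR. The intervals of Pyy, Gast and Tac1 exclude 0, and Pyy and Tac1 (black) passed after adjustment over all genes.

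**Figure D4:**
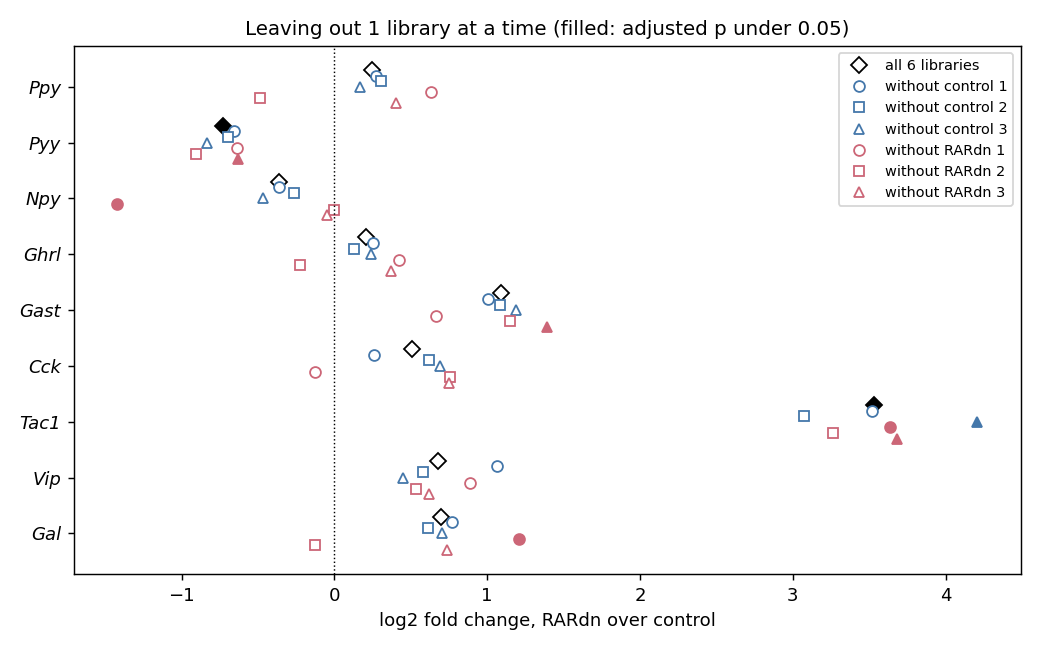
Log2 fold change of each gene with all 6 libraries (black) and with 1 library left out (blue for controls, red for RARdn), filled where the adjusted p was under 0.05. Beyond the calls of Pyy and Tac1, Npy and Gal are called without RARdn 1 and Gast without RARdn 3. Ppy, Ghrl and Gal cross 0 without RARdn 2, and Cck crosses 0 without RARdn 1.

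The receptors of these peptides were mostly low, apart from Cckar. Of 17 receptor genes 10 passed the filter and none was called by edgeR (median log2 0.28). DESeq2 called 2 of them higher, and in edgeR 3 were at an unadjusted p under 0.05. Cckar, the CCK receptor of acinar cells, was the most abundant with a control mean of 1074 ± 90.1 CPM and values of 587, 785 and 1417 CPM in RARdn 1, 2 and 3 (adjusted p = 0.730), in the order of the acinar share. Adcyap1r1, a receptor of the VIP family, was at 18.99 ± 3.18 and 25.6 ± 1.65 CPM (log2 0.43, adjusted p = 0.112). Receptors of neuropeptide Y were scarce, with 1 of 5 passing the filter. Neither Ghsr, the ghrelin receptor gene (3, 0 and 1 reads in controls and 16, 21 and 3 in RARdn libraries), nor Tacr1, the substance P receptor gene (1 to 12 reads), passed it.

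Of 12 genes that process or break down peptide hormones, 2 rose and none fell (median log2 0.39), while with pan-endocrine scaling 0 of the 12 were called. Pam, which amidates the ends of most of these peptides, was at 127, 125 and 128 CPM in control 1, 2 and 3, against 208, 211 and 189 CPM in RARdn 1, 2 and 3 (log2 0.68, SE 0.11, edgeR adjusted p = 0.0160). Mme, the gene of neprilysin, a peptidase that cleaves substance P, was at 2.82, 3.07 and 3.26 CPM in controls and at 4.99, 6.27 and 6.12 CPM in RARdn libraries (log2 0.92, SE 0.18, adjusted p = 0.0335). In both the groups did not overlap. The mesenchyme list, of whose 8 genes 1 rose, summed to 3918 to 5218 CPM in the control group as against 6261 to 7175 CPM in the RARdn group, and its part in these values was not tested.

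Among 21 other genes of gut, islet and nerve peptides 13 passed the filter, 1 rose (Sst, somatostatin) and 1 fell (Ins2, an insulin gene), with a median log2 of 0.27. Of 13 transcription factor genes of islet cell types 12 were tested and 2 rose (0 with pan-endocrine scaling, where 1 fell), among them Hhex, a delta cell factor gene (21.3 ± 0.897 and 38.7 ± 6.83 CPM, log2 0.86, edgeR adjusted p = 0.0160). Of the pan-endocrine genes Vgf, a granule peptide precursor gene, rose (log2 1.87, adjusted p = 0.0123), and Chga, the most abundant, was at 234 ± 15.3 and 322 ± 80.5 CPM (adjusted p = 0.187).

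The genes whose log2 CPM over the 6 libraries was most like that of each hormone gene were looked up among 12533 or 12534 protein-coding genes that averaged 2 CPM or more, as a description of 6 points that share depth and composition. For Pyy these were Ilkap, Fer1l5 and Ankrd12 (Pearson r 0.988 to 0.990, with 118 genes above 0.9). For Tac1 they were Vma21, Smurf1 and Pacs1 (0.995 to 0.996, 444 above 0.9). For Gal they were Adamtsl3, the trypsinogen gene Prss2 and Pde4a (0.987 to 0.995, 142 above 0.9). For Npy they were Pole, Tmem163 and Sclt1 (0.992 to 0.995, 180 above 0.9). Ppy came closest to Plgrkt, Dtwd2 and Arrdc2 (0.976 to 0.991), and Ghrl to Srpx2, Rfesd and Pcmtd2 (0.972 to 0.985). Gast came closest to Sox12, Obsl1 and Tmem201 (0.992 to 0.997), Cck to Zfp266, Espl1 and Cdc26 (0.981 to 0.996), and Vip to Sox18, Naprt and Snx8 (0.994 to 0.998).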

How the data were processed

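Each deposited table gave whole-number read counts by gene symbol for 1 library, in the layout of HTSeq, with 5 summary lines that took 25.4% to 31.5% of reads and were left out. The submitters' processing notes name FastQC, cutadapt, HISAT2, HTSeq, bedtools and DESeq2 and the builds mm10 and GRCm38. Not given in the sources used here: tool versions, annotation and strand setting. Genes were filtered with filterByExpr, scaled with TMM and tested, RARdn against control, with edgeR 4.0.16 (quasi-likelihood, 2-sided, genotype as the only term) in R 4.3.3, with Benjamini-Hochberg adjustment over 19070 genes. Standard errors (SE) are |log2 fold change| divided by the root of the F statistic, and intervals use its t quantile. Exon lengths and positions came from GENCODE M21 and promoters from RefSeq.

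The 9 genes and all lists were chosen with earlier results of these data known. Named besides the 9 were up to 4 called genes of each list by p, filled to 2 by abundance, and the 3 most alike genes. 1 of the genes that this rule names is not reported here. Naming Dbh, Th, Mboat4, Gkn2, Cdx1, Cdx2, Fabp1, Fabp2, Vil1, Tff2, Ghsr, Tacr1 and the tissue markers was chosen after their values were seen. Alternatives were other scalings, filters, covariates and tools and leaving out each library. Labels do not say that samples came from separate litters, and the p-values then reflect only spread among these libraries, which may be technical in part.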

Additional observations from a re-analysis of the deposited data

How the results depend on the processing

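The fit called 767 genes, 262 higher and 505 lower. The count of all genes called moved by over 1.5 times with total counts as the scale (474, 125 higher and 349 lower), no filter on low counts (2346, 1123 and 1223), at least 1 CPM in 3 libraries (217, 77 and 140), a sex term (61, 5 and 56) and DESeq2 (1946, 973 and 973). The sex term left control 2 as the only control set against the RARdn libraries. With pan-endocrine scaling 144 were called higher and 677 lower. Leaving out 1 library gave 100 to 2980 calls (22 to 1404 higher, 71 to 1576 lower). Of the 9 hormone genes 2 were called, 1 with total counts or pan-endocrine scaling, 0 with the 1 CPM filter or the sex term, 3 without a filter or with DESeq2, and 0 to 3 when leaving out 1 library. Of 151 alternative fold changes 5 turned sign: Ppy with limma-voom (-0.0077), and, leaving out 1 library, Ppy (-0.49 to 0.63), Ghrl (-0.23 to 0.42), Cck (-0.13 to 0.76) and Gal (-0.12 to 1.21). Of 63 alternative ratios to pan-endocrine CPM 6 did, all when leaving out 1 library: Ppy (-0.61 to 0.54), Ghrl (-0.44 to 0.33), Cck (-0.19 to 0.45) and Gal (-0.16 to 1.12). The cause was not tested. Deviations from the group mean correlated little between same-numbered libraries (0.013, -0.014 and 0.126 for replicates 1, 2 and 3). The correlations cannot tell whether same-numbered libraries shared a litter, and the labels do not say. The fit with the replicate block called 817 genes and, of the 9, again Pyy (log2 -0.74, adjusted p = 0.0284) and Tac1 (log2 3.53, adjusted p = 0.0286, both edgeR). Tac1 and Vip had the fewest reads, and the 1 CPM filter left them untested.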
